A study of Mus musculus with 10 samples.

Results

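The genes described here encode the proteins of the cytosolic ribosome. They were chosen by symbol and class among the protein-coding genes of the deposited table, as Rpl or Rps followed by a number and at most one letter a, x or y, with Rplp0, Rplp1, Rplp2 and Rpsa, and with Rpl10, Rpl22 and Rpl39 left out. This gave 73 genes, 30 of the small subunit and 43 of the large subunit, of 21859 protein-coding genes and 55401 genes in all. Fau, Rps3a1 and Rack1 encode further ribosomal components, and their symbols lie outside this rule. The RNA came from round spermatids, the haploid germ cells that follow meiosis, of adult male CD1 mice, an outbred stock. In the heat group the testes of 5 anaesthetised mice touched water at 42 °C for 30 min, and in the control group those of 5 mice touched water at 33 °C for 30 min. Both groups were under isoflurane, woke up and were killed right away so that the cells could be isolated, and thus anaesthesia and recovery were shared. Each library was made from total RNA depleted of ribosomal RNA with a stranded kit.

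A ribosome reads mRNA on its small subunit and joins amino acids on its large subunit, and each subunit is built from ribosomal RNA and one copy of most of its proteins. The mRNAs of these proteins start with a terminal oligopyrimidine (TOP) tract, a C followed by a run of pyrimidines, and in mammalian cells mTORC1 and the RNA-binding protein Larp1 set their translation together. In male germ cells the X chromosome is silenced at meiosis and stays largely repressed in round spermatids, and several X-linked ribosomal protein genes have autosomal copies that are used in its place. Counts of total RNA give the amount of an mRNA and not its translation.

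The start sites were searched for the tract, a feature that the choice by symbol did not use and that was more frequent in these genes than in all genes. RefSeq promoter entries of build GRCm38.p6 were found for 53 of the 73 genes. A tract of a C followed by at least 6 letters that are each C or T lay across an annotated start in 19 of the 53 genes, or 35.8%, against 5.03% of 27025 genes with an entry. The share was 36.4% for small subunit genes (n = 22) and 35.5% for large subunit genes (n = 31). Within 25 letters on either side of the start, such a tract was found in 66% of the 53 genes and in 30.6% of all genes. The windows printed here run from 15 letters before the start to 15 letters from it on, on the strand of the gene, with the tract in capitals. They show 3 small subunit and 5 large subunit genes with a tract across the start, and the 2 X-linked genes, whose windows held none. Windows without a tract were not particular to the X-linked genes, and those of Rps2, Rps3, Rpsa, Rpl41 and Rplp0 also held none.
Rps6 (chr4:86857353-86857382, minus strand): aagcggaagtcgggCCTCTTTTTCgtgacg
Rps10 (chr17:27635230-27635259, minus strand): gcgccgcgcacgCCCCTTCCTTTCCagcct
Rps27 (chr3:90213634-90213663, minus strand): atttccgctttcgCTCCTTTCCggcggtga
Rpl7a (chr2:26910792-26910821, plus strand): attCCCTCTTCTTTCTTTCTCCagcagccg
Rpl15 (chr14:18270972-18271001, minus strand): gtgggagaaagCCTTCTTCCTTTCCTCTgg
Rpl35 (chr2:39005117-39005146, minus strand): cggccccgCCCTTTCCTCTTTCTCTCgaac
Rpl38 (chr11:114668565-114668594, plus strand): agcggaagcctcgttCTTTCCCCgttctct
Rplp2 (chr7:141447636-141447665, plus strand): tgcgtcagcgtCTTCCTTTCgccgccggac
Rps4x (chrX:102189377-102189406, minus strand): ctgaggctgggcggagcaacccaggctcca
Rpl36a (chrX:134585639-134585668, plus strand): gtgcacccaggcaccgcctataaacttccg
In the whole 300-letter entry, the ETS-type motif CCGGAAG on either strand occurred in 41.5% of the 53 genes and in 9.93% of all genes. The letters TATAAA on the sense strand occurred in 7.55% and 9.77%. The letters CTTTCC on the sense strand, which can lie inside a pyrimidine tract, occurred in 41.5% of the 53 genes and 16% of all genes, with 22.7% of small and 54.8% of large subunit genes. A match describes these letters only, and the annotated start of many genes differs between RefSeq and the annotation used for the counts.

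Total counts per library were 60623568 to 102086073 at 42 °C and 92311183 to 117723075 at 33 °C. The ribosomal protein genes took 0.419 to 0.573% of all counts at 42 °C and 0.484 to 0.552% at 33 °C. Markers fixed for round spermatids were all in the table (20 of 20, none at 0 in every library), and their summed levels were 2425 to 3715 CPM (reads of a gene relative to the TMM-scaled library total) at 42 °C and 1854 to 3355 CPM at 33 °C. Sertoli cell markers summed to 11.6 to 25.7 CPM at 42 °C and 7.89 to 21.1 CPM at 33 °C. The library 42 °C replicate 2 stood apart. It was the shallowest, and transposable elements took 16.2% of its counts, against 5.79 to 7.30% in the other 42 °C libraries and 4.62 to 9.07% in the 33 °C libraries. Because the libraries are bulk samples, fewer cells of a type and less RNA per cell cannot be told apart.

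No ribosomal protein gene passed the test between 42 °C and 33 °C. In the quasi-likelihood test of edgeR, fitted to all 26025 genes and transposable element subfamilies that passed a filter on low counts, 0 of the 72 tested genes had an adjusted p under 0.05, against 0.0922% of all features (0.0884% higher and 0.00384% lower). Before adjustment, edgeR gave a p under 0.05 for 0 of the 72, against 11.5% of all features (8.56% higher and 2.94% lower). DESeq2 called 0 after adjustment, against 1.11% of all features, and 0 at an unadjusted p under 0.05. limma voom with library weights called 0 after adjustment, against 0.588% of all features, and 2 at an unadjusted p under 0.05, which were Rpl21 and Rps4x. For DESeq2 and limma voom the unadjusted share over all features is not given here, so these unadjusted counts cannot be set against it. The only gene under the filter was Rpl36a, on chromosome X. In 0 of the 72 genes were the groups separated without overlap, against 2% of all features.

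**Figure D1:**
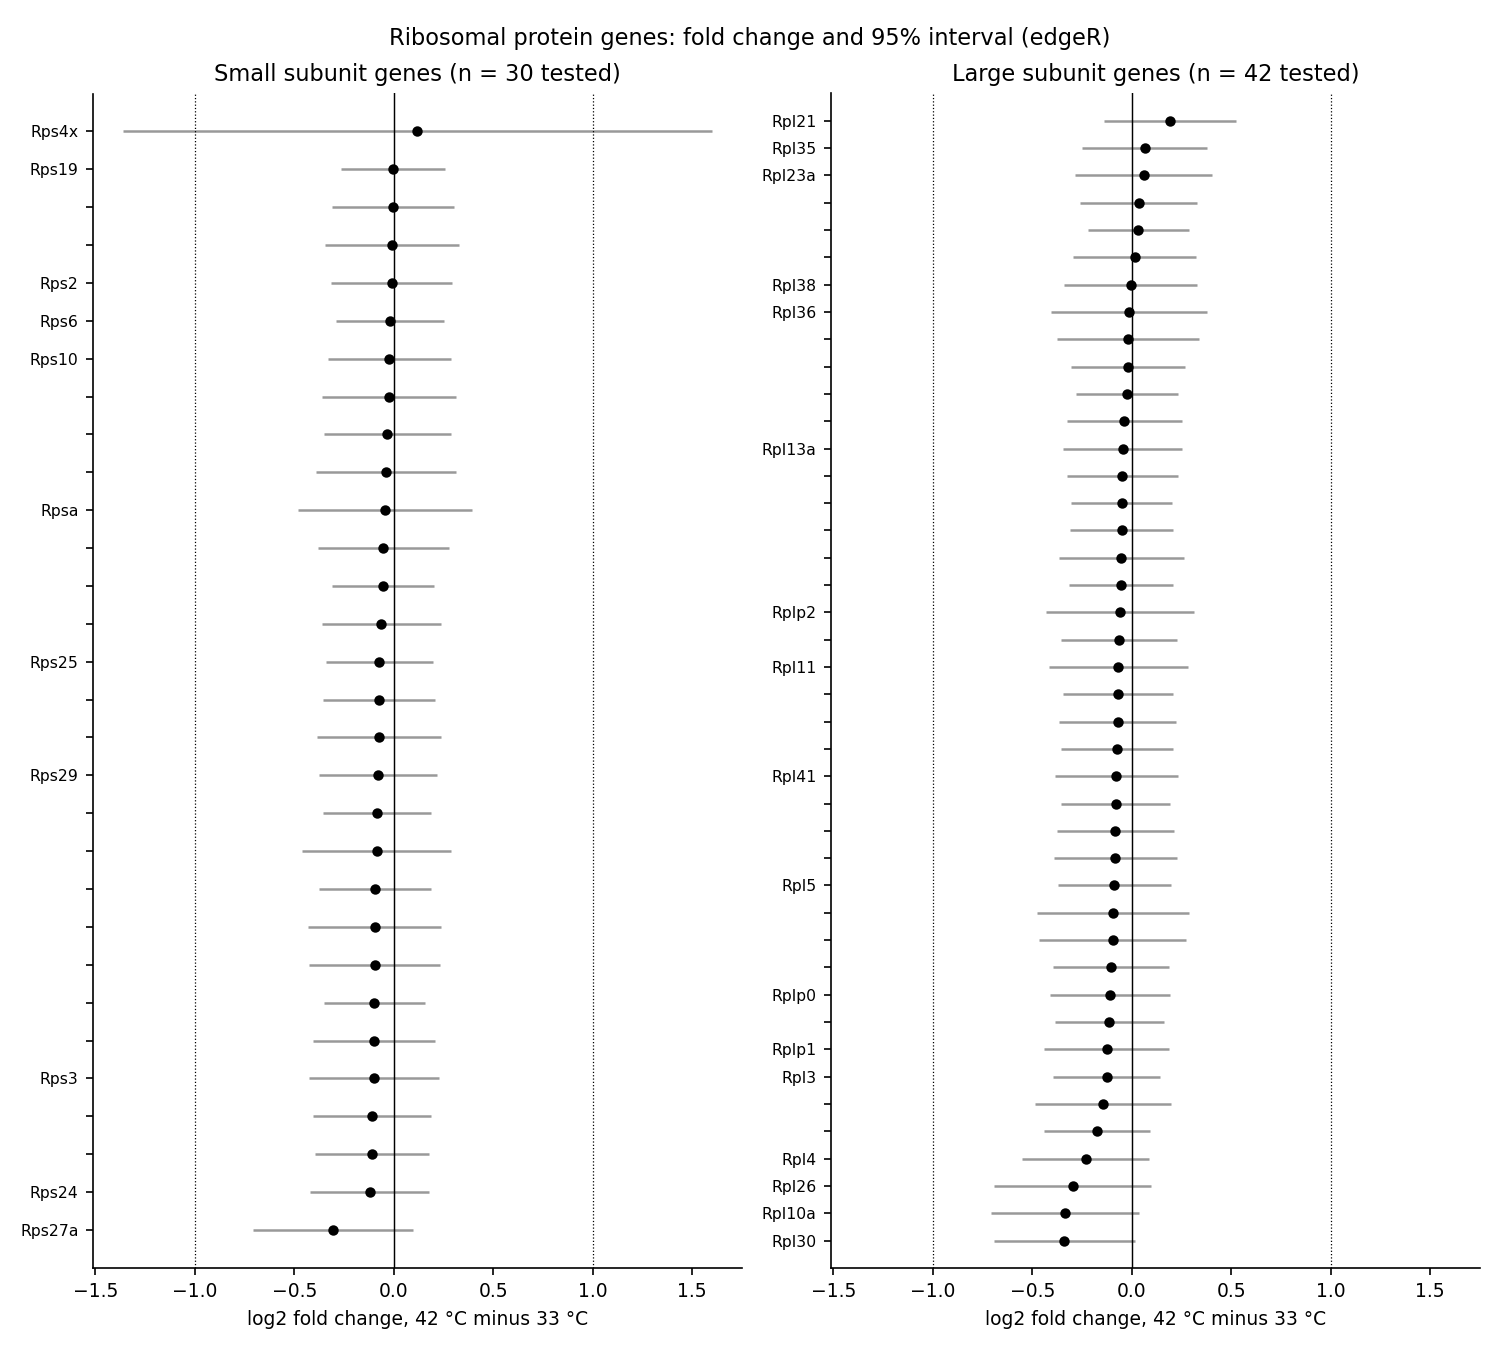
Log2 fold change of each tested ribosomal protein gene (42 °C minus 33 °C, 5 libraries each), with points for the edgeR estimate and bars for its 95% interval, and names for a subset of the genes. All intervals cross 0, and all but that of Rps4x lie inside the dotted lines at a 2-fold change.

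The intervals bound the size of any difference. For the 71 autosomal tested genes the 95% intervals reached from 0.611-fold to 1.44-fold, and the median standard error was 0.14 on the log2 scale. Of the 72 tested genes, 71 had an interval within 2-fold either way, against 68.8% of all features, and 67 had one within 1.5-fold. The largest differences were Rpl30 (log2 fold change -0.34, SE 0.16) and Rpl10a (-0.34, SE 0.17) on the lower side and Rpl21 (0.19, SE 0.15) on the higher side. The smallest adjusted p in edgeR was 0.450, for Rpl30.

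Signs leaned one way in this comparison. Among the 72 genes 65 had a negative log2 fold change, or 90.3%, against 51.1% of all features. The median was -0.07, against -0.01 over all features and -0.10 over the 8985 features with a mean of at least 10 CPM. This lean turned when single libraries were left out: without 42 °C replicate 2 the median was 0.05 and 59 of the 72 genes were positive, and without 33 °C replicate 2 it was 0.01 and 43 were positive. Without 33 °C replicate 5 the median was -0.009, with 40 genes negative and 32 positive. With limma voom and library quality weights, the median was 0.07 and 63 genes were positive. Genes listed as spermatocyte and as elongating spermatid markers also lay apart in sign. The median was -0.18 for the 20 spermatocyte markers (summed level 3180 to 4497 CPM at 42 °C and 4252 to 4862 CPM at 33 °C). It was 0.38 for the 16 elongating spermatid markers (5489 to 11470 CPM at 42 °C and 5791 to 8502 CPM at 33 °C). Whether the reads of the latter came from later cells or from round spermatids was not tested. For round spermatid markers the median was 0.31. No marker was called or at 0 in every library, and the part of the cell mixture in the signs was not tested.

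Small and large subunit genes had like values. The median log2 fold change was -0.07 in both, with 29 of 30 small subunit genes and 36 of 42 large subunit genes negative. Small subunit genes summed to 2399, 1565, 2386, 2121 and 2082 CPM at 42 °C, against 2026, 2428, 2027, 2193 and 2462 CPM at 33 °C. Large subunit genes summed to 3395, 2204, 3381, 2994 and 3003 CPM at 42 °C, against 2902, 3456, 2936, 3230 and 3387 CPM at 33 °C. In both sums 42 °C replicate 2 was lowest of the 10 libraries and the other values of the groups overlapped. Means were 2111 ± 338 CPM at 42 °C, against 2227 ± 211 CPM at 33 °C, for the small subunit (SD, n = 5 each). For the large subunit they were 2995 ± 483 CPM at 42 °C and 3182 ± 254 CPM at 33 °C. Over all 73 genes the ratio of the means, 42 °C over 33 °C, was 0.944, and without 42 °C replicate 2 it was 1.006 at the same scaling and 1.026 with TMM factors computed anew. Without 33 °C replicate 2, with factors computed anew, it was 0.993.

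The balance of the subunits varied less than their sums. The ratio of the large to the small subunit sum was 1.42 ± 0.0132 in the 42 °C libraries and 1.43 ± 0.0360 in the 33 °C libraries (SD, n = 5 each). At 42 °C it ran from 1.409 to 1.442, inside the range of 1.376 to 1.473 at 33 °C. In 42 °C replicate 2 it was 1.409, although both sums were low there. The ratio depends on which genes are annotated and counted, and says nothing of the number of subunits.

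**Figure D2:**
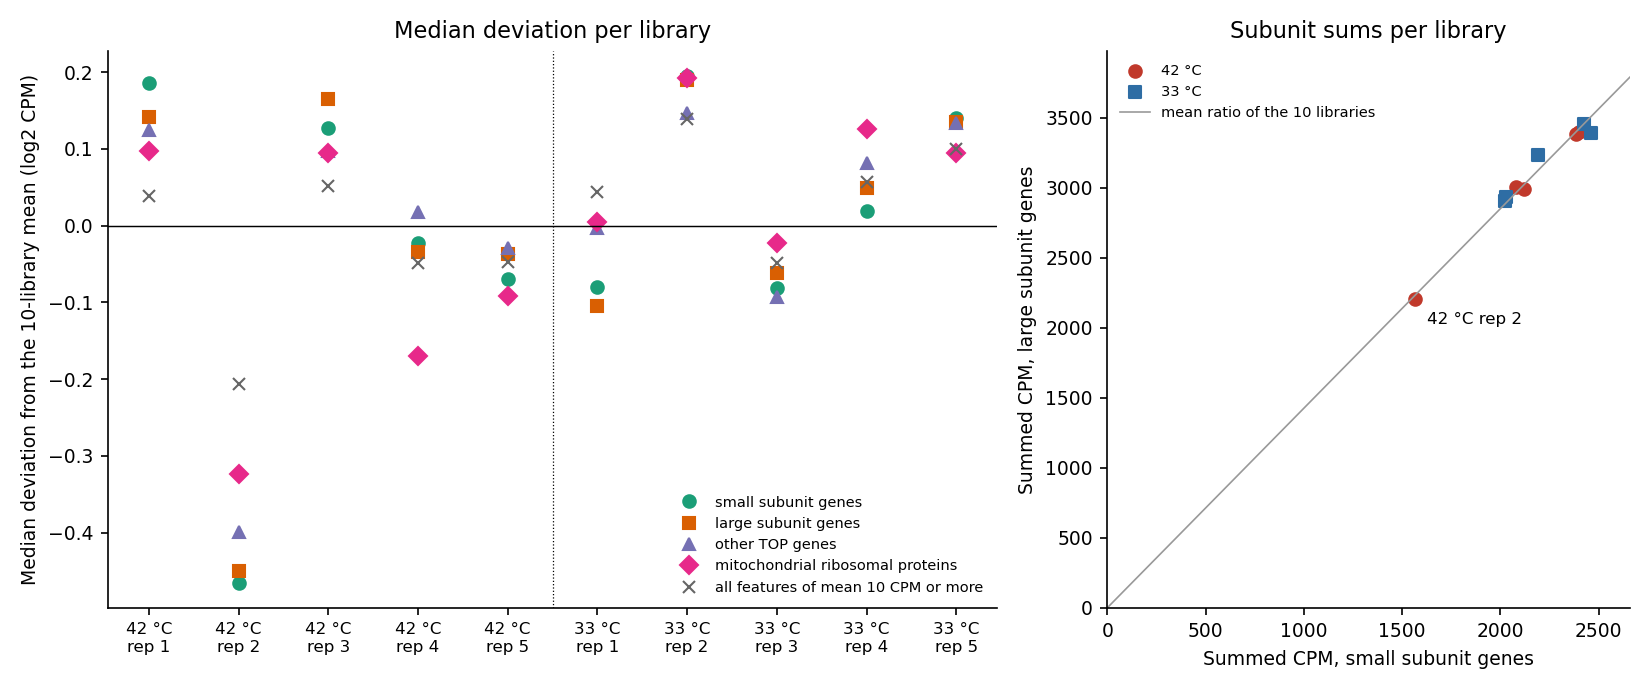
Left, the median deviation of each gene group from its 10-library mean (log2 CPM) for every library. Right, summed CPM of large against small subunit genes for every library, with a line at the mean ratio. Both subunits moved together, and 42 °C replicate 2 lay lowest at 1565 and 2204 CPM.

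Most of the spread of these genes was common to them. Within 42 °C replicate 2 the median deviation from the mean of the 10 libraries was -0.47 for small and -0.45 for large subunit genes on the log2 CPM scale. In the same library it was -0.40 for other mRNAs with a TOP tract, -0.32 for mitochondrial ribosomal protein genes, -0.26 for ribosome biogenesis factors and -0.21 for all features with a mean of at least 10 CPM. Of the 72 tested genes 66 were lowest there, or 91.7%, against 22.8% of all features. That library also had the lowest depth and the highest share of transposable elements, and the part of these in its low values was not tested.

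The highest library changed from gene to gene. It was 42 °C replicate 1 for 23 of the 72 genes, 33 °C replicate 2 for 20, 42 °C replicate 3 for 15, 33 °C replicate 5 for 8 and 33 °C replicate 4 for 4. For the 71 autosomal genes the SD of log2 CPM over the 10 libraries had a median of 0.212. After subtraction of each library's median over these genes it had a median of 0.1002, and 59 of the 71 genes were under 0.15. The smallest remaining SD was 0.0304, for Rpl13, and the largest was 0.339, for Rpl10a. Rpl26 (0.302), Rpl14 (0.298), Rps27a (0.291), Rpl30 (0.274), Rpl21 (0.224) and Rpsa (0.216) followed Rpl10a.

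On the small subunit, the genes at the mRNA path had closely matched groups. Rps3 and Rps2 line the channel where mRNA enters. Rps3 had 34.1, 22.0, 29.1, 22.3 and 25.2 CPM at 42 °C, against 25.03, 31.9, 27.7, 33.1 and 24.5 CPM at 33 °C (log2 fold change -0.10, SE 0.15, adjusted p = 0.762 in edgeR). Rps2 had 47.3, 30.9, 45.6, 43.5 and 41.6 CPM at 42 °C, against 38.3, 44.0, 35.4, 42.1 and 50.8 CPM at 33 °C (-0.01, SE 0.14, adjusted p = 0.977 in edgeR). The groups overlapped in both genes, with 42 °C replicate 2 lowest. Rps10, a protein ubiquitinated when ribosomes collide, averaged 20.02 ± 3.39 CPM at 42 °C and 20.3 ± 2.21 CPM at 33 °C.

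Rps6 is the small subunit protein that is phosphorylated downstream of mTORC1. Its mRNA had 87.0, 59.8, 74.3, 72.9 and 76.1 CPM at 42 °C, against 68.9, 79.0, 63.5, 77.0 and 86.7 CPM at 33 °C. The 42 °C values enclosed those at 33 °C, and the log2 fold change was -0.02 (SE 0.12, adjusted p = 0.951 in edgeR). Rps19, a gene mutated in human Diamond-Blackfan anaemia, averaged 30.3 ± 3.45 CPM at 42 °C and 30.3 ± 3.17 CPM at 33 °C. Rps24, mutated in the same disorder, had a log2 fold change of -0.12. Rps25, which internal ribosome entry sites of some viruses need, averaged 96.2 ± 14.3 CPM at 42 °C and 101 ± 8.85 CPM at 33 °C.

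Rps27a is made as a fusion of ubiquitin and a small subunit protein and had the lowest log2 fold change of its subunit. It had 47.1, 27.3, 39.1, 26.1 and 33.7 CPM at 42 °C, against 36.4, 42.8, 44.0, 56.4 and 34.3 CPM at 33 °C. Its lowest library was 42 °C replicate 4 and its highest 33 °C replicate 4, and the groups overlapped (log2 fold change -0.30, SE 0.19, adjusted p = 0.498 in edgeR). Fau, a fusion to a ubiquitin-like protein that the rule does not take, had a log2 fold change of -0.09. Rpsa, also known as a laminin receptor, had 109, 59.1, 89.4, 83.5 and 75.4 CPM at 42 °C, against 72.3, 101, 61.4, 74.2 and 120 CPM at 33 °C. Its groups overlapped over nearly their whole width (log2 fold change -0.04, SE 0.20, adjusted p = 0.933 in edgeR), and 17.7% of the counts on Rpsa and its named pseudogenes together fell on the pseudogenes.

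On the large subunit, Rplp0, Rplp1 and Rplp2 form the stalk that recruits translation factors. Rplp0 had 364, 226, 363, 338 and 347 CPM at 42 °C, against 334, 397, 320, 348 and 370 CPM at 33 °C. All of its 42 °C libraries but replicate 2 lay within the 33 °C range, and the log2 fold change was -0.11 (SE 0.14, adjusted p = 0.716 in edgeR). Rplp1 averaged 66.3 ± 12.8 CPM at 42 °C and 72.4 ± 8.08 CPM at 33 °C (log2 fold change -0.13). Rplp2 averaged 52.2 ± 13.0 CPM at 42 °C and 54.4 ± 7.39 CPM at 33 °C (log2 fold change -0.06).

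Rpl5 and Rpl11 bind Mdm2 when ribosome assembly is disturbed. Rpl5 had 61.9, 41.9, 63.7, 56.4 and 53.7 CPM at 42 °C, against 56.2, 68.9, 53.1, 55.5 and 61.4 CPM at 33 °C (log2 fold change -0.09, SE 0.13, adjusted p = 0.759 in edgeR). Rpl11 had 67.7, 36.9, 59.2, 46.8 and 50.6 CPM at 42 °C, against 44.8, 56.0, 49.9, 61.3 and 61.6 CPM at 33 °C (-0.07, SE 0.16, adjusted p = 0.859 in edgeR). The 42 °C values of Rpl11 spread on both sides of those at 33 °C. Rpl13a, known for a role outside the ribosome in silencing mRNAs of human monocytes, averaged 31.4 ± 5.54 CPM at 42 °C and 32.4 ± 3.04 CPM at 33 °C. Rpl38, which the translation of Hox mRNAs needs in mouse embryos, averaged 40.9 ± 8.50 CPM at 42 °C and 41.1 ± 5.24 CPM at 33 °C.

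Rpl3 and Rpl4 are core proteins of the large subunit. Rpl4 had 191, 120, 194, 128 and 155 CPM at 42 °C, against 175, 206, 170, 197 and 177 CPM at 33 °C. Of its 42 °C libraries 3 were below every 33 °C library and 2 lay among them (log2 fold change -0.23, SE 0.15, adjusted p = 0.510 in edgeR). Rpl3 averaged 63.4 ± 10.0 CPM at 42 °C and 69.2 ± 5.15 CPM at 33 °C (log2 fold change -0.13). Rpl23a, Rpl26 and Rpl35 surround the exit of the peptide tunnel. Rpl26 had 70.9, 43.2, 65.0, 84.8 and 86.3 CPM at 42 °C, against 85.1, 66.9, 83.4, 91.7 and 103 CPM at 33 °C. Its groups overlapped, with the highest to the lowest library at 2.39-fold, the widest of the 71 autosomal genes (log2 fold change -0.30, SE 0.18, adjusted p = 0.498 in edgeR). The log2 fold changes of Rpl23a and Rpl35 were 0.06 and 0.07.

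Rpl10a, of the mobile stalk at the tRNA exit side, was the lowest autosomal gene per length of annotated exons. It had 6.54, 6.63, 8.37, 4.24 and 7.43 CPM at 42 °C, against 7.81, 7.70, 8.57, 9.29 and 8.53 CPM at 33 °C. Of its 42 °C libraries only replicate 3 reached the 33 °C range (log2 fold change -0.34, SE 0.17, adjusted p = 0.465 in edgeR). Rpl30, at a contact with the small subunit, had 77.5, 49.6, 66.7, 87.8 and 82.0 CPM at 42 °C, against 81.8, 75.3, 89.3, 110 and 104 CPM at 33 °C. Its groups overlapped, and its log2 fold change of -0.34 had a 95% interval of -0.70 to 0.01.

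A few large subunit genes lay the other way. Rpl21 had 48.1, 32.6, 43.3, 30.8 and 31.2 CPM at 42 °C, against 27.0, 32.4, 30.8, 35.2 and 37.5 CPM at 33 °C. Its high values came from 42 °C replicates 1 and 3, and the other values overlapped (log2 fold change 0.19, SE 0.15, adjusted p = 0.588 in edgeR, and 0.39 with an adjusted p of 0.171 in limma voom). Rpl14 was the only one of the 71 autosomal genes above its own mean in 42 °C replicate 2. It had 8.09, 9.28, 7.94, 6.80 and 6.91 CPM at 42 °C, against 6.79, 8.34, 9.01, 7.79 and 6.70 CPM at 33 °C (log2 fold change 0.01, SE 0.14, adjusted p = 0.968 in edgeR).

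Levels differed between these genes far more than between groups. Per kilobase of annotated exons, the mean over the 10 libraries had a median of 30.4 CPM for the 71 autosomal tested genes and ran from 3.09 CPM for Rpl10a to 205 CPM for Rplp0, a ratio of 66.4. Rplp0 (205 CPM per kb), Rps29 (194), Rpl36 (182), Rplp1 (139) and Rpl41 (137) were highest, and the libraries of the first 3 overlapped with each other. Rpl10a (3.09), Rpl14 (4.70) and Rps3 (6.13) were lowest among the autosomal genes. The medians were 29.4 CPM per kb for small and 30.5 for large subunit genes.

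The length used matters for this order. With the length of the principal transcript, an alternative added after the data were seen, the medians were 71.7 CPM per kb for small and 66.9 for large subunit genes, and the lead passed to Rps29 (345), and Rpl41 (274), Rps27 (262) and Rplp0 (251) were also among the first 5. At the low end of the autosomal genes, Rpl14 (7.7) then came below Rpl10a (10.3). Spearman's rho between both orders was 0.835 over the genes, which share their counts. The 5 genes with the most counts held 19.7% of the counts on all 73.

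**Figure D3:**
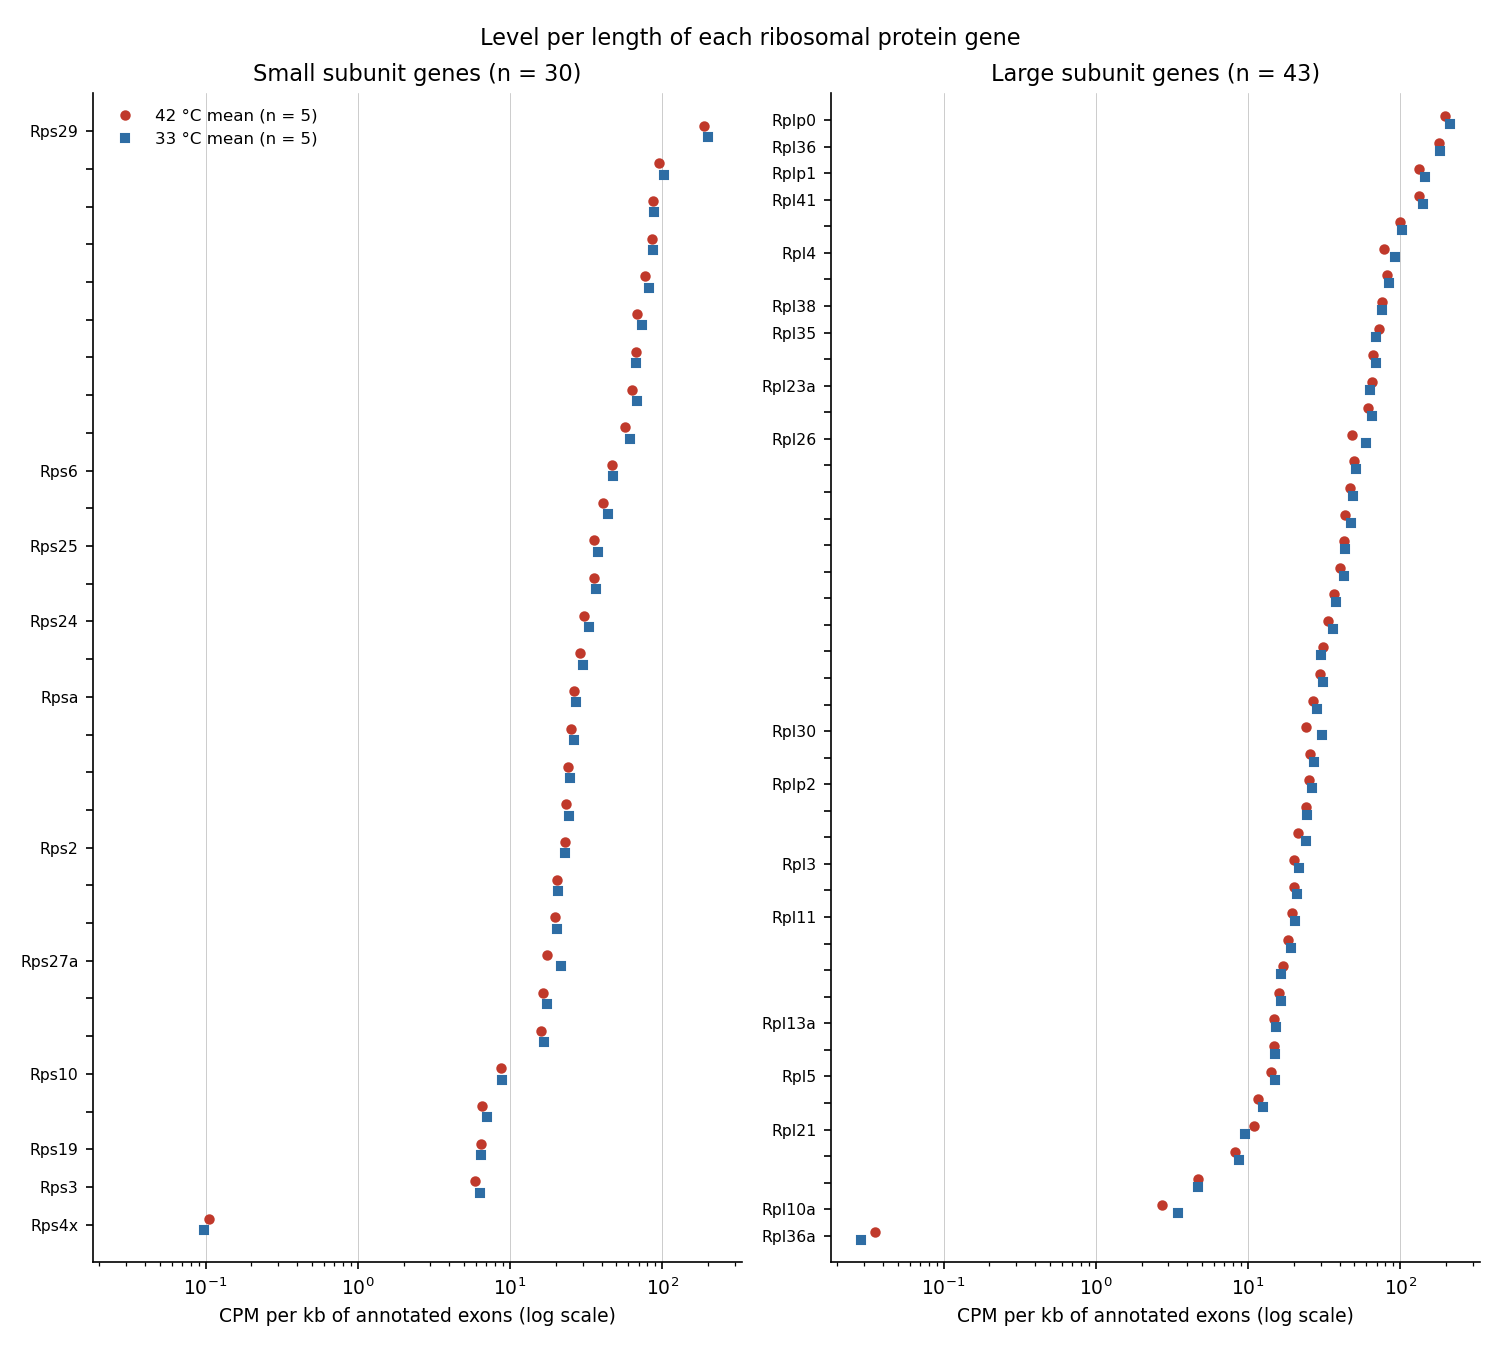
Mean CPM per kb of annotated exons (log axis) of all 73 ribosomal protein genes at 42 °C and 33 °C (n = 5 each), with names for a subset. The autosomal genes spread from 3.09 to 205 CPM per kb, the X-linked Rps4x and Rpl36a lie apart at the low end, and the points of both groups nearly coincide.

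Both X-linked genes had few counted reads in either group. Rps4x, the X-linked gene of its small subunit protein, had 18, 4, 21, 11 and 28 reads at 42 °C, against 5, 10, 54, 7 and 3 reads at 33 °C. Rpl36a had 5, 8, 6, 2 and 4 reads at 42 °C, against 3, 3, 12, 4 and 1 reads at 33 °C. The highest library of both was 33 °C replicate 3, and the groups overlapped. Per length their means were 0.102 CPM per kb for Rps4x and 0.0319 for Rpl36a. For Rps4x the log2 fold change was 0.12 (SE 0.68, 95% interval -1.36 to 1.60, adjusted p = 0.945 in edgeR), and without 33 °C replicate 3 it was 1.43 with an adjusted p of 0.299. Among counts on Rpl36a and its named pseudogenes, 89.8% fell on the pseudogenes, and for Rps4x 18.7% did. Of the 100-letter words in the principal transcript, 83.6% for Rpl36a and 34.8% for Rps4x also occur in another gene. How reads of such words were counted is not given, so the low counts may leave out reads of these genes.

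Their autosomal copies had higher levels than the X-linked genes in every library. Rps4l, on chromosome 6 and annotated as a transcribed processed pseudogene, had 91.7, 57.1, 97.3, 85.1 and 79.2 CPM at 42 °C, against 86.9, 96.2, 75.6, 90.8 and 87.9 CPM at 33 °C. Rpl36al, on chromosome 12, had 19.9, 14.5, 18.9, 16.8 and 18.4 CPM at 42 °C, against 19.1, 18.0, 18.4, 19.7 and 20.6 CPM at 33 °C. The groups overlapped for both, with log2 fold changes of -0.09 for Rps4l and -0.11 for Rpl36al. Rps4l and Rpl36al can be told from their X-linked genes by sequence, which does not cover other copies such as the named pseudogenes. The first 60 coding bases, from the transcripts of GENCODE M21 on GRCm38, are shown with the differing bases in capitals.
Rps4x (chrX:102184941-102189394, minus strand): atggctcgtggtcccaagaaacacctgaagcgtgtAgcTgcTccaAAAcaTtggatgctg
Rps4l (chr6:148354656-148355598, plus strand): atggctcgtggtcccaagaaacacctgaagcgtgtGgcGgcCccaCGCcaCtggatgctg
Rpl36a (chrX:134585654-134588062, plus strand): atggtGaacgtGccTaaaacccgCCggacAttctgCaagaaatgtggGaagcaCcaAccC
Rpl36al (chr12:69182731-69184083, minus strand): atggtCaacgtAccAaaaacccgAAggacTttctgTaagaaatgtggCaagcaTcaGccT
The coordinates are those of the genes. Rps4l matched Rps4x at 80.1% of 789 aligned coding bases, with 35 as the longest identical run, and it has an open frame of 262 codons against 263 in Rps4x. Rpl36al matched Rpl36a at 87.9% of 321 coding bases, with 24 as the longest identical run and 106 codons in each.

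**Figure D4:**
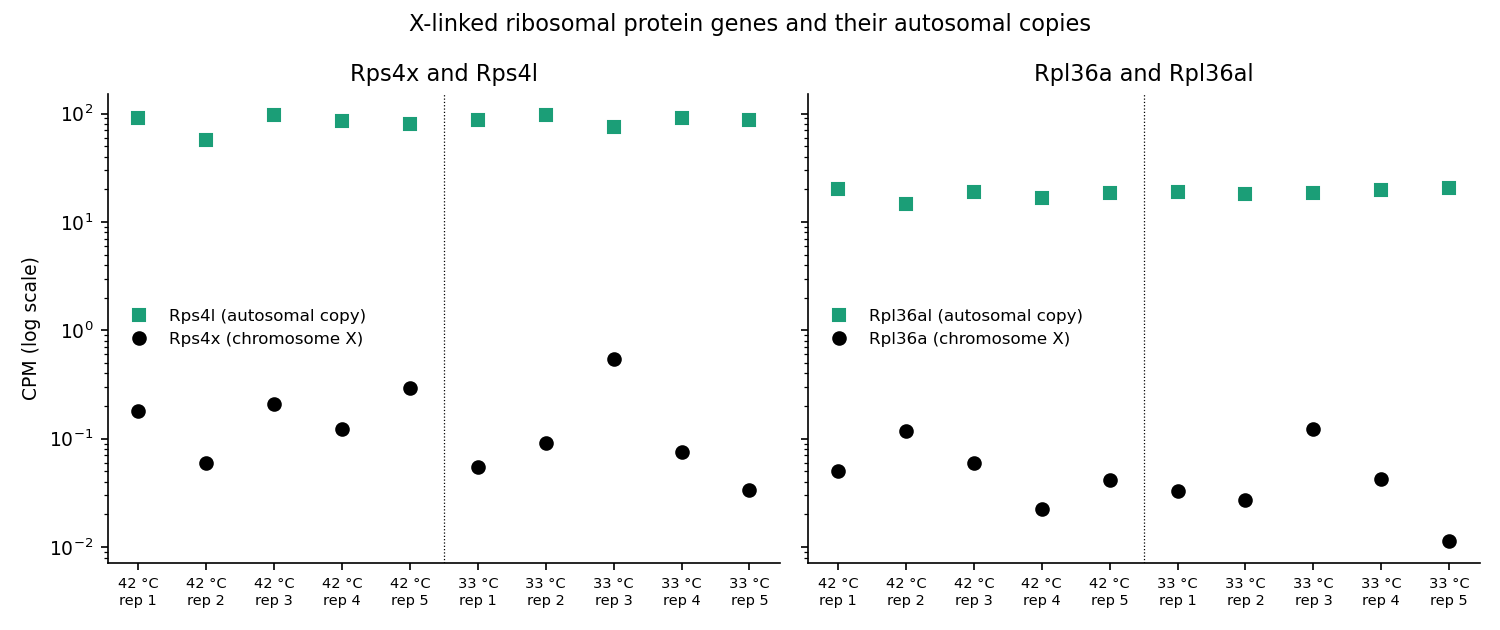
CPM (log axis) of the X-linked Rps4x and Rpl36a and of their autosomal copies Rps4l and Rpl36al in each of the 10 libraries. The copies lie at 57.1 to 97.3 CPM and 14.5 to 20.6 CPM, and the X-linked genes under 1 CPM in every library.

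Markers of several other cell types were also highest among the 33 °C libraries in replicate 3. Peritubular and stromal markers summed there to 36.5 CPM, the highest of the 10 libraries, Sertoli cell markers to 21.1 CPM, spermatogonial markers to 30.2 CPM and elongating spermatid markers to 8502 CPM. Other lists did not peak there. Erythroid markers (80.6 CPM) and spermatocyte markers (4252 CPM) were lowest of the 33 °C libraries in replicate 3. Endothelial markers (24.1 CPM) were below replicate 5 (26.4 CPM), and macrophage and leukocyte markers (87.4 CPM) below replicate 4 (99.1 CPM). For Leydig cells, the steroid-making cells between the tubules, the 11 markers, none at 0 in every library, summed to 60.3 to 90.1 CPM at 42 °C and 48.2 to 84.9 CPM at 33 °C. The 84.9 CPM came from 33 °C replicate 3, and the 90.1 CPM from 42 °C replicate 4, where Rps4x had 11 reads and Rpl36a 2. Insl3, the Leydig cell hormone, had 0.763, 0.519, 0.852, 1.50 and 2.16 CPM at 42 °C, against 0.894, 1.19, 5.85, 0.907 and 1.32 CPM at 33 °C. The part of such cells in the few Rps4x and Rpl36a reads was not tested.

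Other genes around the ribosome gave no call in edgeR either, with 0 of the tested genes of every list past the adjusted threshold. Copies and relatives of the ribosomal protein genes had a median log2 fold change of -0.11 over 10 tested genes. Among them Rpl10l and Rpl39l, autosomal copies expressed in mouse germ cells, averaged 147 ± 29.0 and 145 ± 29.3 CPM at 42 °C, against 162 ± 17.9 and 156 ± 21.3 CPM at 33 °C. Rpl7l1 (-0.25) and Rack1 (-0.18), a scaffold on the small subunit, had the smallest p of that list. Other mRNAs with a TOP tract had a median of -0.12 over 24 genes, with 17 negative. In edgeR 1 of the 24, Snhg5, had an unadjusted p under 0.05, on the lower side, against 2.94% of all features. Snhg5, a host of small nucleolar RNAs, averaged 6.14 ± 1.11 CPM at 42 °C and 8.41 ± 1.50 CPM at 33 °C (log2 fold change -0.45, SE 0.17, adjusted p = 0.386 in edgeR). Eef1d, an elongation factor subunit, had a log2 fold change of 0.38 (SE 0.18) with an adjusted p of 0.454 in edgeR.

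Among the regulators of these mRNAs, Larp1 and Mtor, picked after their values were seen, had high levels. All 18 regulators together summed to 1693 to 2356 CPM at 42 °C and 1947 to 2409 CPM at 33 °C. Larp1 averaged 794 ± 89.3 CPM at 42 °C, against 865 ± 93.8 CPM at 33 °C, and Mtor, the kinase of mTORC1, averaged 624 ± 140 CPM at 42 °C and 693 ± 135 CPM at 33 °C. The 18 regulators had a median log2 fold change of -0.14. An unadjusted p under 0.05 in edgeR was reached by 1 gene on the higher and 1 on the lower side, against 8.56% and 2.94% of all features. These were Eif4g1, the scaffold of cap-binding, with 0.71 (SE 0.26), and Larp4b with -0.35 (SE 0.14), at adjusted p-values of 0.386 and 0.408 in edgeR.

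Factors that build ribosomes had a median of -0.17 over 45 tested genes, with 39 negative. Ubtf, a factor of ribosomal DNA transcription, averaged 2.28 ± 0.212 CPM at 42 °C and 1.55 ± 0.327 CPM at 33 °C (log2 fold change 0.56, SE 0.18, adjusted p = 0.369 in edgeR). Bop1, of large subunit processing, had -0.23. The chaperones of single ribosomal proteins had a median of -0.12 over 11 genes, with Nap1l4 at -0.30 and Grwd1 at -0.27. Genes of ribosome rescue and stress sensing had a median of -0.14 over 13 tested genes, with Nemf at -0.25 and Map3k20, a sensor of stalled ribosomes, at -0.35. Mitochondrial ribosomal protein genes had a median of -0.13 over 78 genes, with 71 negative. Mrpl15 and Mrpl19 had the smallest p among these, with log2 fold changes of 0.49 and -0.44 and adjusted p-values of 0.369 and 0.405 in edgeR.

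How reads of near-identical copies were counted limits single values. A median of 43.0% of the 100-letter words in a ribosomal protein gene's principal transcript also occur in another gene, and 34 of the 73 genes share over 50%. The table holds 301 pseudogenes named after 58 of the genes, with 2.93% of the counts of both together. The pseudogenes held over 10% of the joint counts for 9 genes, and after Rpl36a (89.8%) came Rps2 (54.9%), Rpl29 (22.5%) and Rps4x (18.7%). Exons of 18 genes overlap a gene on the opposite strand and 27 genes hold small nucleolar RNA genes. Whether the counting used the strand is not given in the sources used here, so such reads cannot be told apart.

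Pseudogene counts gave no call between the groups, but a few differed widely between mice. Of the 301 pseudogenes 75 were tested, and edgeR called 0. An unadjusted p under 0.05 in edgeR was reached by 3 of the 75 on the higher and 2 on the lower side. Among all features 8.56% were higher and 2.94% lower at this threshold. The median log2 fold change of the pseudogenes was -0.05. Among the 20 with a mean of at least 1 CPM the highest library exceeded the lowest by a median of 2.25-fold. In 2 of them the ratio was over 10-fold, and these were picked after their values were seen. Rpsa-ps10 had 12.3, 20.1, 14.7, 28.5 and 28.7 CPM at 42 °C, against 12.9, 0.860, 25.2, 24.9 and 1.07 CPM at 33 °C (log2 fold change 0.68, SE 0.75, adjusted p = 0.681 in edgeR). It was near 1 CPM in 33 °C replicates 2 and 5, where Rpsa itself had its highest 33 °C values of 101 and 120 CPM. In the other libraries of both groups Rpsa had 59.1 to 109 CPM, so that its values in both sets overlapped. Rps24-ps3 had 16.0, 8.99, 12.3, 11.9 and 0.607 CPM at 42 °C, against 0.640, 11.9, 10.4, 0.811 and 0.846 CPM at 33 °C (log2 fold change 1.01, SE 0.90, adjusted p = 0.620 in edgeR). It was under 1 CPM in 1 mouse at 42 °C and 3 mice at 33 °C, and Rps24 had 213 CPM in that 42 °C mouse and 194, 208 and 246 CPM in those 33 °C mice. In the other libraries Rps24 had 203, 137, 206 and 196 CPM at 42 °C and 209 and 181 CPM at 33 °C, so that its values in both sets overlapped. The cause of these differences was not tested.

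**Figure D5:**
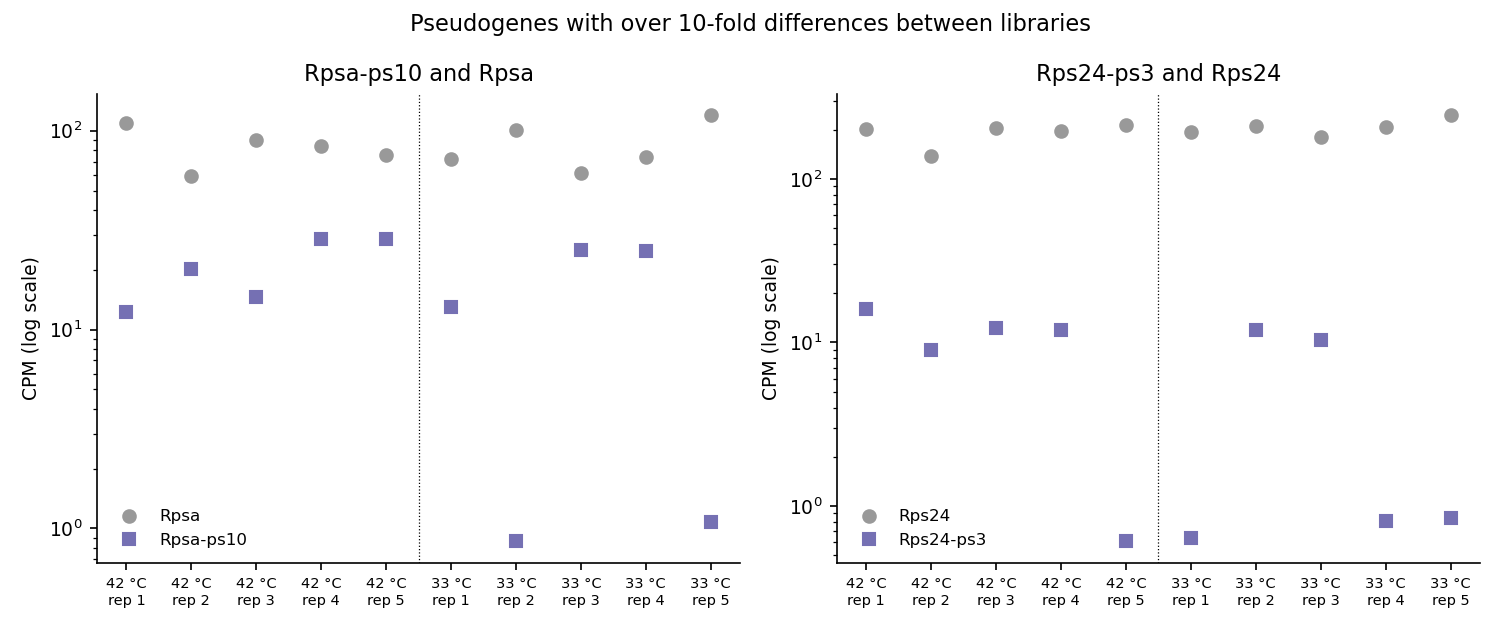
CPM (log axis) of the pseudogenes Rpsa-ps10 and Rps24-ps3 and of Rpsa and Rps24 in each of the 10 libraries. Both pseudogenes have libraries near or under 1 CPM and libraries at 8.99 CPM or more. The low libraries are 33 °C replicates 2 and 5 for Rpsa-ps10, and 1 library at 42 °C and 3 at 33 °C for Rps24-ps3.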

How the data were processed

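The authors deposited raw read counts, not normalized, for 55401 genes and 1146 subfamilies of transposable elements in 10 libraries of 5 mice per temperature. All values are whole numbers with sums that differ between libraries, as raw counts have. Trim Galore, cutadapt, DRAGEN and the builds GRCm38 and mm10 are named per the submitters' processing notes, with no versions. How the reads were counted (tool, strand setting, reads with several matches) is not given in the sources used here. All 73 genes have the positions of GENCODE M21.

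The counts were tested with edgeR 4.0.16 in R 4.3.3 (quasi-likelihood test, group as the sole term, TMM over genes and transposable elements). The filter filterByExpr used a minimum count of 10 and a minimum total of 15. P-values were adjusted by the Benjamini-Hochberg method over 26025 features (threshold 0.05) and measure the spread between these mice. CPM values use TMM-scaled totals, and per-library deviations add 0.1 CPM before the logarithm. Alternatives used other scalings and filters, DESeq2 1.42.0, limma 3.58.1, a replicate block, added pseudogene counts and single libraries left out. The script was tested on simulated data. Every pair of libraries of a group differed beyond sampling noise (chi-square over degrees of freedom 15.3 or more). The value of 15.3 was that of 42 °C replicates 1 and 3, which were the most alike. All other pairs had 58.4 to 327.

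Named were 22 genes of known roles, in each subunit the 3 of smallest p in each direction and the 2 of highest and of lowest level per length, and in each pathway list the 2 of smallest p. Further named genes were picked after their values were seen, as Rpl13, Rpl14, Rpl29, Rps27, Fau, Rpl10l, Rpl39l, Larp1, Mtor and Insl3. Some genes that fall under this rule are not reported here. The genes and lists were chosen with earlier results of these data known.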

Additional observations from a re-analysis of the deposited data

Results flagged for a closer look

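Of 104 sets of 5 libraries examined, 7 held a library whose gap to the next was over 0.71 of the set's range, and chance gives about 1 in 20. At 42 °C, replicate 2 was low for Rplp0 (226 CPM) and Rps24 (137 CPM), as it was for most ribosomal protein genes. At 33 °C, replicate 3 was high for the X-linked Rps4x (0.548 CPM, from 54 reads) and Rpl36a (0.122 CPM, from 12 reads). Rpl7l1 was low in 42 °C replicate 4 (7.34 CPM), and Snhg5 was high in 42 °C replicate 5 (8.12 CPM). The ratio of large to small subunit sums was high in 42 °C replicate 5, at 1.442, which lies inside the range of the 33 °C libraries. The causes were not tested.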

How the results depend on the processing

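No ribosomal protein gene was called by edgeR, DESeq2 or limma voom under any of the settings run, which bear on 72 genes (71 with a mean of at least 1 CPM). The median log2 fold change of the genes lay between -0.12 and 0.07 under the planned settings, was 0.01 without 33 °C replicate 2 and -0.03 with library totals. With limma voom without 42 °C replicate 2, a setting chosen after the data were seen, it was 0.13, as was the large subunit median. There 66 of the 72 genes were positive. Before adjustment 9 genes, all on the higher side, were under 0.05 in that fit, against 2 with all libraries in limma voom. The share of all features at this unadjusted threshold is not given here for limma voom, so the 9 genes cannot be set against it. Over all features, with 23 higher and 1 lower in edgeR, the counts were 15 higher with library totals, 73 and 3 with no filter, 2 and 0 with a mean of at least 1 CPM, 257 and 31 with DESeq2, 124 and 29 with limma voom, 83 and 28 with limma voom without 42 °C replicate 2, and 10 to 21 higher and 0 to 2 lower with single libraries left out. No pairing of the mice was taken from the replicate numbers. Same-numbered libraries had correlations of -0.689 to -0.072. Values of differently numbered libraries were not set beside them, so this check cannot tell whether the numbers pair the mice. With the replicate block 4 features were higher and 0 lower. The ratio of large to small subunit sums was 1.36 at 42 °C and 1.38 at 33 °C with pseudogenes added, and 1.331 at 42 °C and 1.335 at 33 °C without the 5 genes of most counts.

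Signs of named genes, none of them called, turned under some settings. With library totals, the log2 fold changes that turned were 0.01 for Rpsa, 0.035 for Rps2, 0.028 for Rps6, 0.022 for Rps10, 0.044 for Rps19, 0.035 for Rpl38 and 0.027 for Rpl36. With no filter they were 0.031 for Rps2, 0.023 for Rps6, 0.02 for Rps10, 0.04 for Rps19, 0.038 for Rpl38 and 0.03 for Rpl36. With a mean of at least 1 CPM they were 0.019 for Rps2, 0.011 for Rps6, 0.007 for Rps10, 0.028 for Rps19, 0.02 for Rpl38 and 0.013 for Rpl36. With DESeq2, and with its size factors in edgeR, they were 0.004 for Rps2, 0.013 for Rps19, 0.008 for Rpl38 and 0.001 for Rpl36. With TMM over genes only they were 0.009 for Rps19 and 0.003 for Rpl38. With pseudogenes added they were 0.072 for Rpsa and 0.013 for Rps19. With limma voom they were 0.193 for Rpsa, 0.132 for Rps2, 0.053 for Rps3, 0.1 for Rps6, 0.123 for Rps10, 0.07 for Rps19, 0.053 for Rps25, 0.062 for Rps29, 0.001 for Rpl3, 0.027 for Rpl5, 0.166 for Rpl11, 0.124 for Rpl13a, 0.228 for Rpl38, 0.061 for Rpl41, 0.013 for Rplp0, 0.145 for Rplp2, 0.003 for Rps24 and 0.241 for Rpl36. With single libraries left out, the genes that turned ran from -0.16 to 0.146 for Rpsa, -0.069 to 0.109 for Rps2, -0.085 to 0.077 for Rps6, -0.078 to 0.1 for Rps10, -0.054 to 0.097 for Rps19, -0.139 to 1.428 for Rps4x, -0.126 to 0.039 for Rps25, -0.159 to 0.042 for Rps29, -0.145 to 0.027 for Rpl5, -0.179 to 0.061 for Rpl11, -0.111 to 0.075 for Rpl13a, -0.024 to 0.2 for Rpl23a, -0.096 to 0.117 for Rpl38, -0.181 to 0.047 for Rpl41, -0.153 to 0.027 for Rplp0, -0.217 to 0.002 for Rplp1, -0.202 to 0.081 for Rplp2, -0.17 to 0.006 for Rps24, -0.013 to 0.193 for Rpl35 and -0.147 to 0.132 for Rpl36. The causes were not tested.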

Other observations

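The markers of other cell types, counted to describe the cell preparations, gave 0 calls in edgeR. Macrophage and leukocyte markers summed to 48.0 to 75.1 CPM at 42 °C and 80.8 to 99.1 CPM at 33 °C, so the groups did not overlap in this sum (9 tested genes, median log2 fold change -0.25). Among all single features 2% had groups without overlap, and the sums of the other cell types overlapped. In edgeR 1 of the 9 genes had an unadjusted p under 0.05, on the lower side, against 2.94% of all features. Peritubular and stromal markers summed to 19.0 to 30.6 CPM at 42 °C and 16.4 to 36.5 CPM at 33 °C (median 0.16). Endothelial markers summed to 21.8 to 29.8 CPM at 42 °C and 14.2 to 26.4 CPM at 33 °C (median 0.27). Spermatogonial markers summed to 28.1 to 32.4 CPM at 42 °C and 27.0 to 30.2 CPM at 33 °C (median 0.06). Erythroid markers summed to 69.2 to 106 CPM at 42 °C and 80.6 to 109 CPM at 33 °C (3 tested genes, median -0.07). Sertoli cell markers had a median of 0.30 over 15 tested genes and Leydig cell markers one of -0.62 over 10.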
